A study of Mus musculus with 3 samples.

Results

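The aryl hydrocarbon receptor (AhR) pathway was represented by 7 of the 20660 genes that could be named on the arrays. These were the receptor gene Ahr, its partner Arnt, the feedback genes Ahrr and Tiparp, and the cytochrome P450 genes Cyp1a1, Cyp1a2 and Cyp1b1. Members were fixed by symbol, with earlier results of these data known. Every probe whose RefSeq accession matched one of the 7 symbols was taken, which gave 11 probes, each printed as 1 spot per array. By the mark that the scanner software sets for a spot well above background, 7 of these probes were measured on all 3 arrays and 4 on none, so that 5 of the 7 genes had a measured level.

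RNA came from NIH3T3 cells, a mouse fibroblast line, labelled wild type and grown to confluency in medium with 10% fetal bovine serum. Cells were left untreated (None), or received 20 μM AR7 or 20 μM BMS614, and were collected after 24 h. BMS614 is a selective antagonist of the retinoic acid receptor RARα, and AR7 is a small molecule that binds the ligand-binding domain of the same receptor. DMSO was the solvent of both compounds, and since None is described only as untreated, compound and solvent cannot be told apart in a comparison with None. Each condition had 1 array of the Agilent Mouse 8x60K design, and all 3 arrays were on 1 slide, so that no test between conditions can be made and no p-value is given. AR7 against None and BMS614 against None share the None array.

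AhR is a ligand-activated transcription factor of the basic helix-loop-helix PAS family. Without ligand it rests in the cytosol with HSP90 and its cochaperones, p23 among them. After binding a ligand, such as a dioxin or a tryptophan metabolite, it enters the nucleus, pairs with ARNT and binds DNA elements with the core GCGTG, and the genes of the CYP1 enzymes, the AhR repressor (Ahrr) and the ADP-ribosyltransferase TIPARP are among its best known targets. In fibroblasts Cyp1b1 is typically the CYP1 enzyme that is expressed.

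The promoters of these targets show where the core lies. RefSeq windows of the assembly GRCm38.p6, from 250 bases before to 50 bases after the transcript start, were given for 6 of the 7 members, all but Ahr, and 4 are printed because they belong to the genes the values below turn on: Cyp1b1, which was higher with both compounds, Cyp1a1, which was not well above background, and the feedback genes Ahrr and Tiparp. The letters run 5′ to 3′ on the strand of the gene, and capitals mark the core GCGTG or, for a core on the other strand, CACGC. The windows are chr17:79715012-79715311 on the minus strand for Cyp1b1, chr9:57697363-57697662 on the plus strand for Cyp1a1, chr13:74292282-74292581 on the minus strand for Ahrr and chr3:65528197-65528496 on the plus strand for Tiparp.
Cyp1b1: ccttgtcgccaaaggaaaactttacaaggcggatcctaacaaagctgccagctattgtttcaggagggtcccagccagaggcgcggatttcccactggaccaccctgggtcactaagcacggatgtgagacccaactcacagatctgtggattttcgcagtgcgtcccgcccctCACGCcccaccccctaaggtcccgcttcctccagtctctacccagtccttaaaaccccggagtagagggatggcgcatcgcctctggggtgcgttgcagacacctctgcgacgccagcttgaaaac
Cyp1a1: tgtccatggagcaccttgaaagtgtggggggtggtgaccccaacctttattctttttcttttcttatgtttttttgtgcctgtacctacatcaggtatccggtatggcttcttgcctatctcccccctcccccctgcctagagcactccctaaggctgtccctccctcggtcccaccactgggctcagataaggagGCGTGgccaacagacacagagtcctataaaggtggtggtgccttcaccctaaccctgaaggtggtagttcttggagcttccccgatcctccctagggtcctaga
Ahrr: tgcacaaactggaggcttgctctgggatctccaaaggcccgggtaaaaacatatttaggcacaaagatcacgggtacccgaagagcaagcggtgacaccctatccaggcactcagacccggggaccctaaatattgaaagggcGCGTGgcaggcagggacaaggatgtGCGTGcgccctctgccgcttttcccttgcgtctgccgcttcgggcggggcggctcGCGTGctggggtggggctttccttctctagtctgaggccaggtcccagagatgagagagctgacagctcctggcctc
Tiparp: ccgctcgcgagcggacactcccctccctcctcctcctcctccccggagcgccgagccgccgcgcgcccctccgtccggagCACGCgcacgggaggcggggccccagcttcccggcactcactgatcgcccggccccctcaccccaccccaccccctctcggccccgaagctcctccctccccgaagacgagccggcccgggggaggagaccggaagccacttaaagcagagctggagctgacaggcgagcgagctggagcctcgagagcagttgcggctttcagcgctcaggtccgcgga

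The core was present in 5 of the 6 member windows. Ahrr held 3 cores, of which those nearest to the transcript start began 82 and 27 bases before it, and Cyp1a1 held 1 core that started 54 bases before it. In Cyp1b1 the core started 76 bases and in Tiparp 170 bases before the start, in each case on the other strand, and Arnt held 1 core at 29 bases before the start. The Cyp1a2 window held no match. Of 32851 promoter windows of the same length in the table, 10639 (32.4%) held the core on either strand and 3643 (11.1%) held more than 1. The longer motif TNGCGTG, which contains the core, was found in the Ahrr window alone among the 6, and in 1664 (5.07%) of all windows. A match describes these letters only, and no match in a 300-base window says nothing of elements farther away.

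**Figure D1:**
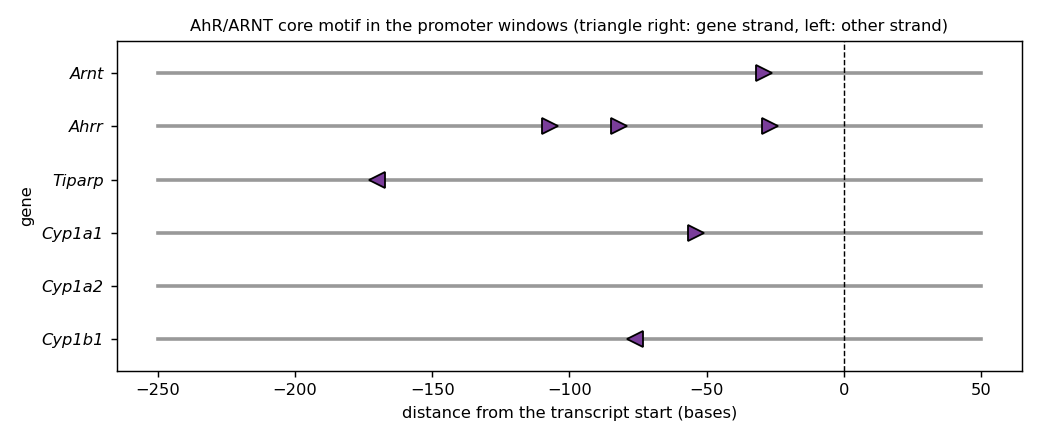
Position of the AhR/ARNT core in the promoter windows of 6 member genes. The x axis gives the distance from the transcript start in bases, each row is a gene, and each triangle is a core that points right on the strand of the gene and left on the other strand; Ahrr has 3 triangles, Cyp1a2 has none and the other 4 genes have 1 each.

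The arrays carried the fibroblast transcripts that the label implies. All 9 fibroblast markers examined (Col1a1, Col1a2, Col3a1, Fn1, Vim, Thy1, Pdgfra, Pdgfrb and S100a4) were well above background on all 3 arrays, with summed raw intensities of 721927 for None, 782101 for AR7 and 925167 for BMS614. Of the hepatocyte markers, Alb, Apoa1 and Ttr were below that mark in every condition, whereas Cyp2e1 and Serpina1a were on all 3, with sums over the 5 markers of 3210 to 4088. Among 4 epithelial markers Cdh1 and Krt8 were above background on all 3 arrays (sums of 657 to 699), as were Adgre1 and Csf1r among 3 leukocyte markers with a probe (3167 to 3773) and Pecam1 and Kdr among 3 endothelial markers (8886 to 10755). Each of these sums was lowest for None and highest for BMS614, as was the 75th percentile of raw intensity over all spots (693 for None, 781 for AR7 and 909 for BMS614), and the share of probes well above background ran from 55.4% for None to 61.3% for AR7 and 61.8% for BMS614. Raw intensities are therefore given below only beside the normalized log2 intensities, on which all differences were taken.

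Transcripts of the receptor and its partner were present in all 3 conditions at levels that differed little. Ahr, the ligand-binding receptor, gave raw intensities of 2879 for None, 3456 for AR7 and 3851 for BMS614 at probe A_55_P2109613. After normalization these were log2 intensities of 11.64, 11.75 and 11.64. The order was None, BMS614 and then AR7, with None and BMS614 apart by 0.0048 on the log2 scale. AR7 was above None by 0.11 ± 0.06 (log2 difference ± SD of the difference between the same 2 arrays over repeated spots of similar signal, an error of spots and not of cultures) and above BMS614 by 0.10 ± 0.05, or 1.07-fold. The second Ahr probe did not clear background in any condition, with raw intensities of 117, 131 and 124.

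**Figure D2:**
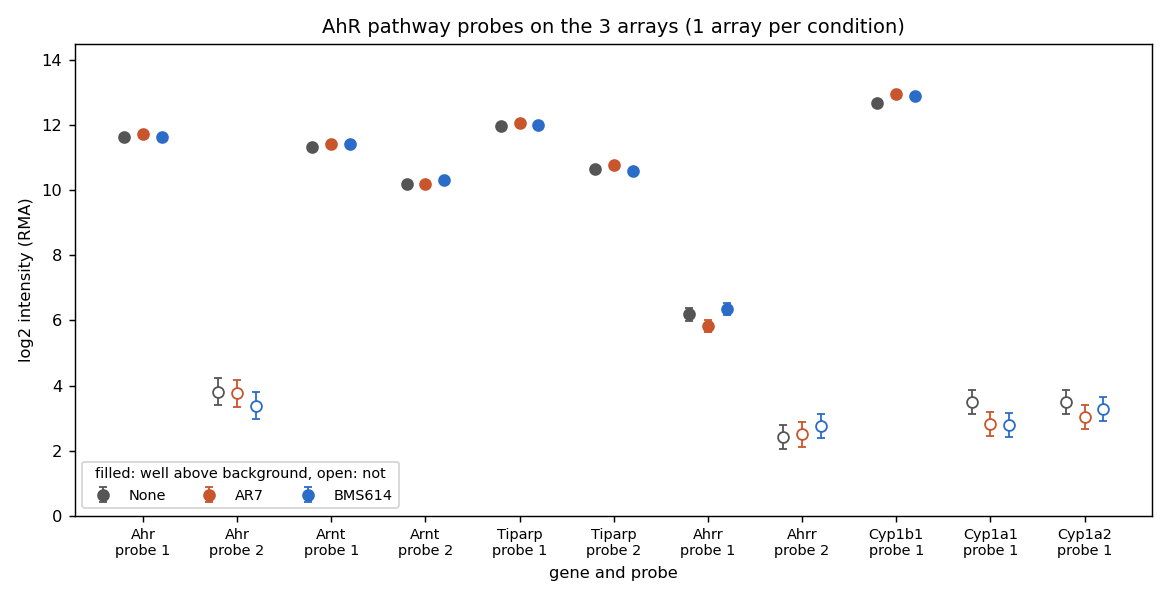
Normalized log2 intensity (y axis) of each member probe (x axis) on the None, AR7 and BMS614 arrays, 1 array per condition. Filled points were well above background and open points were not; each bar is ± 1 SD of the AR7 minus None difference over repeated spots of similar signal. Of the filled probes that of Ahrr has the widest span across the 3 arrays, from 5.83 to 6.35, and the probes of Cyp1a1 and Cyp1a2 are open throughout.

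Arnt, which encodes the DNA-binding partner of AhR and of the hypoxia-inducible factors, was measured by 2 probes above background. The brighter probe, A_55_P2100895, had raw intensities of 2322, 2796 and 3347 for None, AR7 and BMS614 and log2 intensities of 11.32, 11.42 and 11.43. It was higher than None by 0.09 ± 0.06 with AR7 and by 0.10 ± 0.06 with BMS614. AR7 minus BMS614 was -0.01 on the log2 scale, less than the spot SD of 0.05. The other probe read 10.19, 10.19 and 10.32, which placed AR7 at None (difference 0.0046) and BMS614 0.13 ± 0.06 above it. Both Arnt probes thus had None lowest and BMS614 highest, by 1.08-fold and 1.09-fold.

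The feedback genes differed in the order of the conditions. Tiparp, whose product ADP-ribosylates AhR and limits its activity, had raw intensities of 3597, 4303 and 4962 for None, AR7 and BMS614 at probe A_51_P514961, and log2 intensities of 11.97, 12.07 and 12.02. AR7 lay 0.10 ± 0.05 and BMS614 0.05 ± 0.05 above None, and the difference between the compounds was 0.05 ± 0.04. At the other Tiparp probe, with log2 intensities of 10.64, 10.77 and 10.60, AR7 was again highest, 0.13 ± 0.07 above None and 0.18 ± 0.06 above BMS614, whereas BMS614 differed from None by -0.05, within the spot SD. Both probes had AR7 as the highest of the 3 conditions.

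Ahrr, the repressor that competes with AhR for ARNT, was dim. Probe A_51_P254425 had raw intensities of 173 for None, 183 for AR7 and 224 for BMS614, against a 95th percentile of 105, 117 and 118 over the negative control spots of those arrays. Its log2 intensities were 6.18, 5.83 and 6.35, so that AR7 was lowest and BMS614 highest. The AR7 minus None difference was -0.36 ± 0.20 on the log2 scale (0.78-fold) with this processing, but 0.09 when the scanner's processed signal was used and 0.06 in the deposited table of processed values. BMS614 lay 0.17 ± 0.18 above None, within the spot SD, and between 0.12 and 0.35 above it under the other processings. AR7 minus BMS614 was -0.52 ± 0.19 (0.70-fold) and ranged from -0.52 to -0.19 under the other processings. The second Ahrr probe, with raw intensities of 87, 97 and 106, did not clear background in any condition.

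Of the CYP1 enzymes, Cyp1b1 was measured and was higher with both compounds. Cyp1b1 encodes the monooxygenase that oxidises polycyclic hydrocarbons and oestrogens outside the liver. Its probe A_51_P255456 had raw intensities of 5846 for None, 7864 for AR7 and 9040 for BMS614. The log2 intensities were 12.69, 12.97 and 12.90, in the order None, BMS614 and AR7. The AR7 value exceeded None by 0.28 ± 0.05, or 1.22-fold, which is 5.23 times the spot SD. With BMS614 the excess was 0.21 ± 0.05, or 1.16-fold and 4.12 times the spot SD. AR7 and BMS614, neighbours in that order, differed by 0.07 ± 0.04, or 1.84 times the spot SD. Of the 2704 named genes whose mean log2 intensity lay within 1 of that of Cyp1b1, 38 (1.41%) were as high or higher above None with AR7 and 84 (3.11%) with BMS614. As far from None in either direction were 43 (1.59%) with AR7 and 162 (5.99%) with BMS614. For the other measured members this share in either direction, among genes of similar signal, ran from 25.7% to 96.4%. Across the other processings the difference was 0.21 to 0.28 with AR7 and 0.15 to 0.21 with BMS614.

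No level could be given for the other CYP1 enzymes. Cyp1a1, the hydrocarbon hydroxylase that is the usual readout of AhR activity, had background-subtracted intensities of 5.27 for None, -6.23 for AR7 and -8.55 for BMS614. Cyp1a2, which is chiefly a liver enzyme that metabolises caffeine, had 4.87, -3.51 and 7.62. The values of dim Ahrr on that scale were 62.0, 76.2 and 108, and the scanner software placed neither Cyp1a1 nor Cyp1a2 well above background on an array. On the None array both genes had a raw intensity of 111, against a 95th percentile of 105 over its negative control spots. The promoter of Cyp1a1 printed above holds the core, and so does that of Cyp1b1, as do 32.4% of all promoter windows. Neither holds the longer motif.

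**Figure D3:**
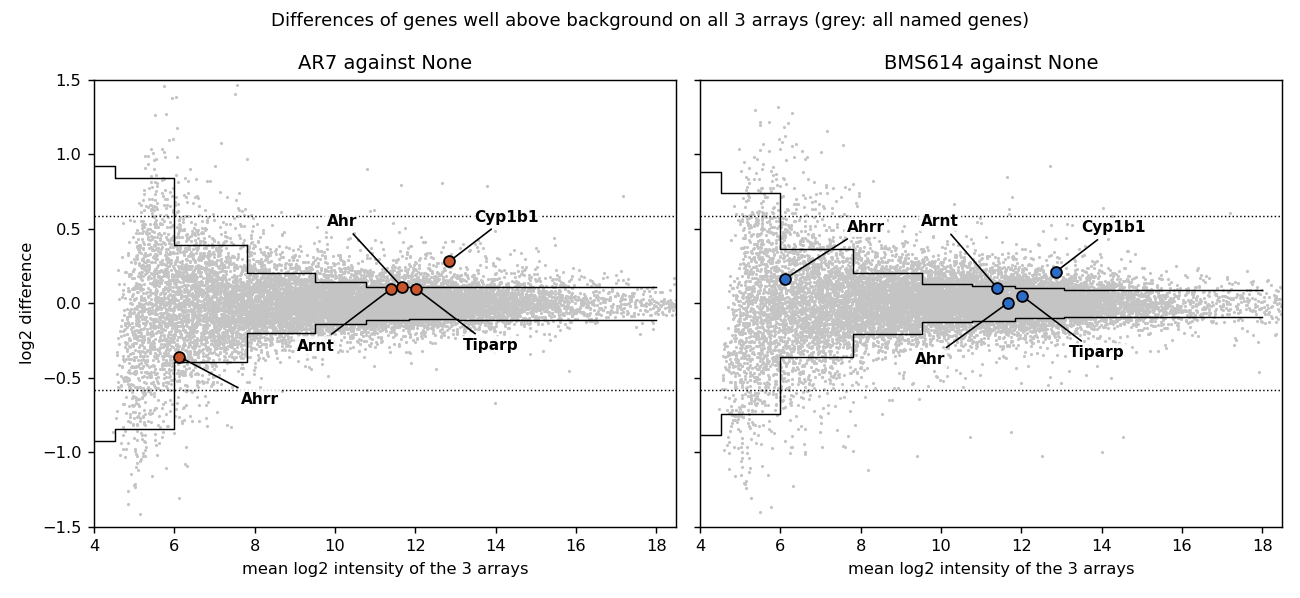
Log2 difference from None (y axis) against mean log2 intensity of the 3 arrays (x axis) for the named genes that all arrays measured, AR7 on the left and BMS614 on the right. Grey points are the 13805 genes, of which 11 and 6 lie beyond the axis limits, coloured points are the 5 members, stepped lines are ± 2 SD of repeated spots and dotted lines are 1.5-fold; Cyp1b1 is the member outside the stepped lines in each panel.

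Counted over the pathway, no member reached 1.5-fold or 2-fold in any of the 3 comparisons. For AR7 against None, 0 of the 7 members passed 2-fold and 0 passed 1.5-fold, where 1.04% and 3.81% of the 14682 named genes detected with at least 1 of the conditions compared did. The figures for BMS614 against None were again 0 and 0, beside 1.07% and 4.17% of 14672 genes. For AR7 against BMS614 they were 0 and 0, beside 1.05% and 4.72% of 15286 genes. Cyp1a1 and Cyp1a2 cleared background in no condition and could not pass, so that these shares bear on 5 members, for which counts of 0 are near the background.

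At the brightest probe of each gene, differences past 2 SD of repeated spots were counted for the 5 measured members. Taken by comparison, the counts were near the shares over all genes. Cyp1b1 was past it upward in AR7 against None and in BMS614 against None, as the single member in each, where 17.2% and 24.8% of 13805 genes were past it in either direction. In AR7 against BMS614, Ahr was past it upward, at 2.07 times the spot SD, and Ahrr downward, at -2.74 times, beside 27.4% of all genes. The second probes of Arnt and Tiparp were past it as well, Arnt in BMS614 against None (2.06 times) and AR7 against BMS614 (-2.03 times) and Tiparp in AR7 against BMS614 (2.86 times). The median log2 difference of the 5 members was 0.10 for AR7 against None, 0.10 for BMS614 against None and 0.05 for AR7 against BMS614, with medians over the 13805 genes of -0.0029, 0.00078 and -0.0014. With AR7, 4 of 5 members lay above None, Ahrr being the exception, and with BMS614 5 of 5 did, Ahr by 0.0048.

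**Figure D4:**
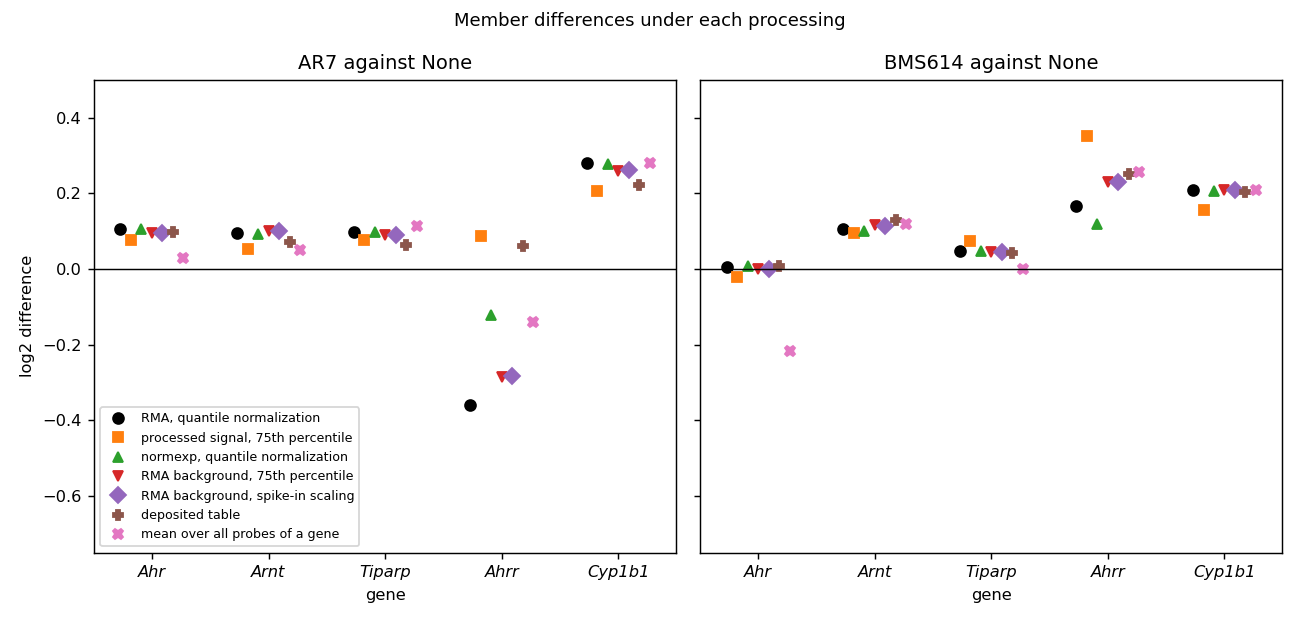
Log2 difference from None (y axis) of the 5 measured members (x axis) under the reported processing (black) and 6 others, AR7 on the left and BMS614 on the right. Cyp1b1 stays above 0 under each, and the Ahrr points with AR7 lie on either side of 0, from -0.36 to 0.09.

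The proteins that hold AhR in the cytosol were transcribed at close to the same level on the 3 arrays. Log2 intensities for None, AR7 and BMS614 were 14.96, 14.94 and 14.90 for Hsp90aa1 and 17.60, 17.60 and 17.62 for Hsp90ab1, the inducible and constitutive HSP90 genes. Ptges3, which encodes p23, read 15.28, 15.23 and 15.18, with a BMS614 minus None difference of -0.11 ± 0.05. The Ptges3 difference with BMS614 was past 2 SD of repeated spots. Of the 4 genes of the list, 0 passed it in AR7 against None, beside 17.2% of all genes. In BMS614 against None 2 passed it downward, Ptges3 among them, beside 24.8%. In AR7 against BMS614 1 passed it upward, beside 27.4%. The medians of the list were -0.0095 with AR7 and -0.083 with BMS614.

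In the Ah battery beyond the CYP1 enzymes, Nqo1 and Aldh3a1 were higher with AR7 than in either of the other conditions. The list was chosen with earlier results of these data known. Battery genes are detoxification genes that AhR is known to activate, and other factors, such as NRF2, can activate some of them as well. Nqo1, a quinone reductase, read 10.43, 11.33 and 10.64 for None, AR7 and BMS614, from raw intensities of 1300, 2626 and 1976. AR7 exceeded BMS614 by 0.69 ± 0.05, or 1.62-fold. BMS614 in turn exceeded None by 0.21 ± 0.06, or 3.50 times the spot SD. Aldh3a1, an aldehyde dehydrogenase, read 13.52, 14.30 and 13.51, from raw intensities of 10305, 19648 and 13657. It was 1.74-fold higher with AR7 than with BMS614, and at a second probe, with 12.37, 13.65 and 12.33, the log2 difference was 1.33. None and BMS614 did not differ beyond the spot SD at either Aldh3a1 probe (-0.01 and -0.04).

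The glucuronosyltransferase genes of the battery gave smaller differences. Ugt1a6b read 13.50, 13.71 and 13.46, with AR7 0.20 ± 0.06 above None. Ugt1a6a was dim, at 5.85, 5.76 and 5.26, and none of its differences passed 2 SD. Ugt1a genes share exons, so these 2 probes may not tell them apart. Gsta1 had no matched probe. Over the 4 measured genes 2 passed 1.5-fold in AR7 against None (Nqo1 and Aldh3a1), 1 in BMS614 against None (Ugt1a6a, downward at -0.59 ± 0.37) and 2 in AR7 against BMS614 (Nqo1 and Aldh3a1), beside 3.81%, 4.17% and 4.72% of all genes. Ugt1a6a did not pass 1.5-fold under any of the other background corrections and scalings or in the deposited table, where it ranged from -0.51 to -0.18. The medians of the list were 0.50, -0.02 and 0.60 in the 3 comparisons.

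**Figure D5:**
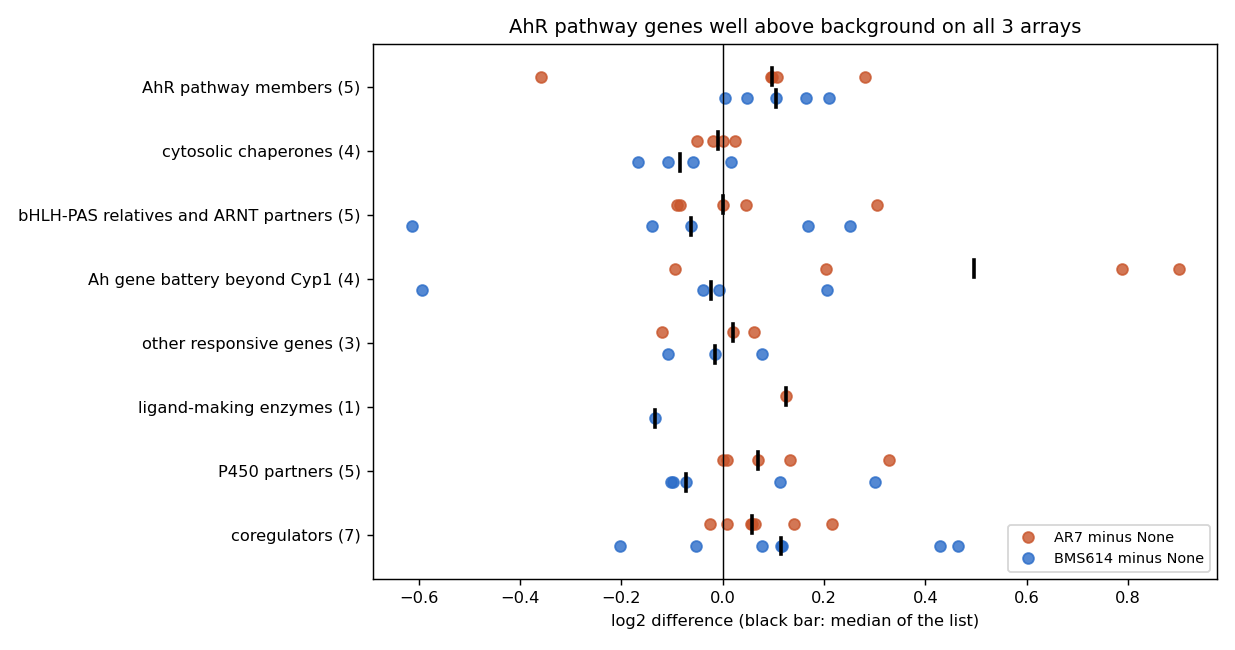
Log2 difference from None (x axis) of the measured genes in each AhR pathway list (y axis, number of genes in brackets), with AR7 in orange, BMS614 in blue and the median as a black bar. The AR7 median of the Ah gene battery is 0.50, and the other AR7 medians lie between -0.01 and 0.13.

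Among other genes reported to respond to AhR, the 3 that were measured on all arrays (Nfe2l2, Slc7a5 and Ereg) had medians of 0.02 with AR7 and -0.01 with BMS614, and 0 of them passed 2 SD of repeated spots, beside 17.2% and 24.8% of all genes, so that a count of 0 of 3 is near the background. Cyp2s1, another P450 gene of that list, was chosen after its values were seen. It was well above background with AR7 and with BMS614 but not with None, at log2 intensities of 5.39, 4.35 and 4.12. AR7 was at least 1.85-fold above None, a bound that leaves out the spot SD of 0.42. Its measured difference from BMS614 was 1.04 ± 0.39, or 2.06-fold. Both rest on 1 dim probe, with raw intensities of 168, 148 and 122 for AR7, BMS614 and None. No bound could be given for BMS614 against None. Serpinb2 did not clear background in any condition. Of the enzymes that make kynurenine or indole ligands of AhR, Ido1, Ido2 and Tdo2 did not clear background in any condition. Il4i1, which converts tryptophan to an indole precursor, differed from None by 0.13 with AR7 and by -0.13 with BMS614, and passed 2 SD only in AR7 against BMS614, at 0.26 ± 0.09.

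Of the 5 measured genes in the list of bHLH-PAS relatives of the receptor and of ARNT (Arnt2, Hif1a, Epas1, Hif3a and Sim2), 1 was past 2 SD of repeated spots with AR7 and 4 with BMS614, beside 17.2% and 24.8% of all genes. Hif1a, the hypoxia-inducible subunit, was 0.25 ± 0.06 above None with BMS614, and Epas1, another such subunit, differed from None by -0.14 ± 0.05. Sim2 was past 2 SD above None with AR7 (0.30 ± 0.07) and with BMS614 (0.17 ± 0.06). Hif3a differed from None by -0.61 ± 0.18 with BMS614 at its brightest probe, with log2 intensities of 6.50, 6.41 and 5.88. The other Hif3a probes measured on all arrays differed from it, at -0.18 and 0.81. Hif1a, Epas1 and Sim2 were named after their values were seen. Sim1 did not clear background in any condition. The medians of the list were 0.0010 with AR7 and -0.063 with BMS614.

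The partners of the P450 reaction were all measured. Cyb5a, the cytochrome b5 that passes electrons to P450 enzymes, read 14.27, 14.60 and 14.18 for None, AR7 and BMS614, with AR7 0.33 ± 0.06 above None and 0.43 ± 0.04 above BMS614. Por, the reductase on which CYP1 enzymes depend, was 0.30 ± 0.05 above None with BMS614 and 0.07 ± 0.06 with AR7, and was named after its values were seen. Of the 5 genes 2 passed 2 SD upward with AR7, and 2 upward and 2 downward with BMS614, beside 17.2% and 24.8% of all genes in either direction. The 7 coregulators had median log2 differences from None of 0.06 with AR7 and 0.12 with BMS614, and 1 passed 2 SD upward with AR7, and 2 upward and 1 downward with BMS614. Among them Ep300, a histone acetyltransferase, read 7.94, 7.92 and 8.40, with BMS614 0.47 ± 0.10 above None. Its paralogue Crebbp, named after its values were seen, differed from None by -0.20 ± 0.05 with BMS614.

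With the reported processing Ahrr had the largest absolute difference from None among the 5 measured members, though its direction with AR7 was not kept under every processing. The genes with the most similar pair of differences were sought among 2342 named genes of similar signal. The nearest were Ccne2, which encodes cyclin E2, at a Euclidean distance of 0.014 in log2 units over the 2 differences, Cnnm1 at 0.033 and Mfap3l at 0.041. Ccne2 differed from None by -0.37 with AR7 and 0.16 with BMS614, Cnnm1 by -0.33 and 0.15, and Mfap3l by -0.40 and 0.15. Since likeness was taken over 3 arrays at a signal where the spot SD was 0.18 to 0.20, this order is a description of these arrays only.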

How the data were processed

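Labelled RNA of NIH3T3 cells was hybridised to 3 Agilent one-colour arrays, 1 per condition, grouped by the treatment in their labels. The authors deposited the scanner's intensity for each spot (Agilent Feature Extraction 10.7.3.1, per the file headers) and a table of processed intensity values, which correlates with the background-subtracted intensity of each array at r = 1 on a linear scale (medians of 64.95, 70.7 and 67.5 for None, AR7 and BMS614), with its scaling not given in the sources used here. The methods name RMA with the oligo package. Here the RMA convolution background was fitted to median pixel intensity over all spots, followed by quantile normalization over the 3 arrays, log2 and the mean over spots, with controls and outlier spots left out (R 4.3.3, limma 3.58.1, Python 3.11.15, numpy 2.4.6, pandas 2.3.3, matplotlib 3.10.9). Of 55681 probes, 27235 (48.9%) were named through a RefSeq gene table of GRCm38.p6. Where several probes named a gene, the brightest by mean signal stood for it.

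No test was possible without replicate arrays. A difference is set beside the SD of differences between spots of 399 probes printed 10 times, in 10 bins of signal (0.04 to 0.46), which holds neither culture nor labelling error. The number of arrays limits the precision. A gene counts as past 2-fold or 1.5-fold if 1 or both of the arrays compared measured it well above background, and a dim probe counts by its bound, taken from the lowest signal well above background or its own, whichever is higher. The normalization with a 2-fold cut was run on simulated data of 20000 probes, where it found all 200 set 4-fold apart, with 4 false. That run used neither the mark for well above background, nor the bounds, nor the choice of the brightest probe. It therefore does not test the counts given here.

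By rule, the genes named are the 7 members, the chaperones, the Ah battery, and other list genes that differ by at least 0.4 log2 and are measured on all arrays. The 3 genes nearest to the measured member with the largest difference from None are named as well. Outside that rule, Cyp2s1, Hif1a, Epas1, Sim2, Por and Crebbp were named after their values were seen. Further list genes short of the rule are named where their list is described. Certain list genes are not reported here by name; medians and counts still hold them. Members and lists were chosen with earlier results of these data known. Alternatives were the scanner's processed signal or the RMA background scaled to the 75th percentile, normexp with an offset of 50, scaling on 8 spike-in probes, the deposited table with a floor of 16, other fold thresholds and filters on dim probes, and averaging the probes of a gene.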

Additional observations from a re-analysis of the deposited data

How the results depend on the processing

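Of 15 member differences, 13 kept their direction under 6 alternative processings; Ahrr in AR7 against None and Ahr in BMS614 against None did not under at least 1. Over the counts, the list medians and the member differences, 259 alternative values stayed within the spot SD or the count tolerance and 29 moved; the cause was not tested. Without a filter on dim probes, 1 member passed 1.5-fold in AR7 against None and 1 in BMS614 against None, in each case Cyp1a1, which did not clear background in any condition. With the processed signal, Ahrr differed by 0.088 (AR7 against None), 0.35 (BMS614 against None) and -0.26 (AR7 against BMS614), Cyp1b1 by 0.21 and 0.15 from None and Tiparp by 0.0023 between the compounds. The medians became -0.070 for the chaperones and 0.44 for the Ah battery with AR7, 0.059 for the bHLH-PAS relatives and -0.077 for the battery with BMS614, and 0.067 for the P450 partners between the compounds. With normexp, Ahrr was -0.12 in AR7 against None and -0.24 between the compounds, and the battery median between them 0.45. In the deposited table, Ahrr was 0.061 and -0.19 in the same comparisons, Cyp1b1 0.22 and 0.017, and the chaperone median with AR7 -0.066. The mean over all probes takes in the second Ahr and Ahrr probes, which did not clear background in any condition. With that mean, Ahr was 0.030, -0.22 and 0.25 in the 3 comparisons, Ahrr -0.14 with AR7, and Arnt -0.068 and Tiparp 0.11 between the compounds. The bHLH-PAS median was then 0.0071 with BMS614 and -0.090 between the compounds, and Hif3a in BMS614 against None, at -0.61 as reported, became 0.0071. For other list genes 463 alternative values stayed within the spot SD, 58 moved and 1 changed direction from a called value, that of Hif3a, and 20 of their 87 differences had the opposite sign under at least 1 alternative. Scaling on spike-in probes moved the median of all genes by 0.20, 0.36 and -0.15 in the 3 comparisons, and differences under it are given relative to that median. The alternatives with the mean pixel intensity and with the scanner's own gene names were not run, since the columns are not in the files used here. No paired analysis was possible because no condition has a replicate array.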
